A study of Mus musculus with 11 samples.

Results

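Of the genes described here, Cubn, Amn and Lrp2 encode endocytic receptor proteins, and Apob, Apoe and Mttp encode lipoprotein proteins. Visceral endoderm is known for this uptake and lipoprotein machinery. Ttr and Afp encode secreted carriers. Klb encodes a co-receptor and Srgn a proteoglycan core protein, and these are neither uptake receptors nor lipoprotein proteins. The genes are 10 of the 55228 gene symbols in the deposited count table, and all 10 were among the 16420 genes that passed the filter on low counts. They were chosen as a named set after earlier results of these data were known, selected on their levels in the libraries with reintroduced CTCF against the EV libraries. Values from those contrasts are therefore given as a description, without p-values, and nothing is read from how many of the genes were called in them. RNA was sequenced in 11 libraries of EN52.9.1 mouse embryonic stem cells, a single line in which the chromatin architecture protein CTCF carries an auxin-inducible degron (AID). All cells were grown in medium with serum and leukemia inhibitory factor, and the auxin-treated cells received 500 µM of the auxin indole-3-acetic acid. The group called EV untreated had no auxin (genotype label "Untreated (wild-type)", 3 libraries), and EV auxin had auxin and lost endogenous CTCF (2 libraries). FL auxin had auxin with FL CTCF put back (3 libraries), and H373R auxin had auxin with H373R CTCF put back (3 libraries, titled ZF4). FL and H373R CTCF each occur in a single group. The form put back and the cells that carry it therefore cannot be told apart. The labels do not say whether replicates came from separate cultures, so p-values measure only the spread between these samples, which may be technical.

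Visceral endoderm is the polarised epithelium that surrounds the early mouse embryo, and it arises from primitive endoderm. It takes up maternal proteins through a receptor complex of cubilin and amnionless together with megalin, degrades them in lysosomes, and secretes lipoproteins and serum proteins toward the embryo before the liver does so. Primitive endoderm fate is driven by Gata6, and cells with endoderm features are known to arise in embryonic stem cell cultures kept in serum.

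Total counts were 13465241 to 29902246 per library. EV untreated replicate 1 stood apart: its counts differed from those of the other EV untreated libraries with a chi-square per degree of freedom of 14.9 and 15.6, against 1.93 to 4.77 for the other pairs of replicates. Its deviation from the group mean correlated with the GC content of the genes (Pearson's r = 0.56 across 16242 genes, which are not independent replicates). In the libraries of the other groups this correlation was -0.225 to 0.325, with the highest value in FL auxin replicate 1. The pluripotency gene Pou5f1 was at a mean of 1646 to 1710 TPM in every group, so the stem cell identity of the label was visible in all of them. Ctcf RNA was at a mean of 246 to 284 TPM in the 4 groups. Its adjusted p was above the threshold of 0.05 in all comparisons (edgeR, lowest 0.0683), and the degron acts on the protein, which RNA does not show.

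Sequence before the transcription start was matched for 9 of the 10 genes, giving 12 promoters (RefSeq, GRCm38.p6). The windows were searched on both strands. A core of the CTCF motif was written as AGGGGGC. An HNF4 binding element was written as CAAAGNNC. For GATA factors the letters AGATAA were used, and for HNF1 the element GTTAAT. A FOXA element was written as TGTTTAC, and the TATA box as TATAAA. The G-quadruplex motif was searched by its usual definition of guanine runs. The strings were chosen after the promoters had been seen, and a match is a description of letters, not of a bound site. Of the promoters, 5 are printed, those of both receptor partners with the CTCF string and those of the other genes with the HNF4 string. Each reads 5′ to 3′ on the gene's strand, ends before both the RefSeq and the GENCODE start, and has every match in capitals. Cubn lies on the minus strand at chr2:13491877-13492126, Amn on the plus strand at chr12:111270846-111271094, Lrp2 on the minus strand at chr2:69586066-69586279, Apob on the plus strand at chr12:7977427-7977647 and Afp on the plus strand at chr5:90490464-90490713.
Cubn: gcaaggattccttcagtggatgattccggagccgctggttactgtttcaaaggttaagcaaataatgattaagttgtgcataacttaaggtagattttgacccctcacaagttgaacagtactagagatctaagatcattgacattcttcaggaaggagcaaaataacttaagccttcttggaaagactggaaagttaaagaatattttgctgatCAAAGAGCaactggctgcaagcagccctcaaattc
Amn: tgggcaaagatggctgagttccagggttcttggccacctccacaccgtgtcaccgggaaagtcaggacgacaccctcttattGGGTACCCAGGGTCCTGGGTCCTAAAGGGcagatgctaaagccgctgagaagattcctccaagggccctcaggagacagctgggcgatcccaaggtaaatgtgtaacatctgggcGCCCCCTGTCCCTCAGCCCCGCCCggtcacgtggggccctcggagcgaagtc
Lrp2: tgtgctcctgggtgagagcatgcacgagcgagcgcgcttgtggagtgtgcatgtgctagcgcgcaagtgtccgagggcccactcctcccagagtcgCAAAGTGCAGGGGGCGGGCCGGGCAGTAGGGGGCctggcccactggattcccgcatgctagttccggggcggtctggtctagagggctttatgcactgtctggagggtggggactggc
Apob: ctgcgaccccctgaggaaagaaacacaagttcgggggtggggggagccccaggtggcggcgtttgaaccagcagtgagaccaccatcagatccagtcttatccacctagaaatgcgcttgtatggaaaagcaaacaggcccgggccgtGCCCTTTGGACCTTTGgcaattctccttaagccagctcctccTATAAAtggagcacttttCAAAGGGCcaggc
Afp: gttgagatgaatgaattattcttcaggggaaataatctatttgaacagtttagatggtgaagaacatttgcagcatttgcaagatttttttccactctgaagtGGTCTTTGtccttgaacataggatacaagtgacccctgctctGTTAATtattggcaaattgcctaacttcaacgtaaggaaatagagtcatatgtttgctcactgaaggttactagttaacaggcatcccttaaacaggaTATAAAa

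The CTCF core string stood in the promoters of Amn and Lrp2, and 9.43% of the 32851 mouse promoters of the same length hold it. In Lrp2 it occurred at -146 to -140 and again at -127 to -121 bases from the RefSeq start, and a G-quadruplex motif at -145 to -122 overlapped both copies. In Amn it occurred on the opposite strand at -53 to -47 and overlapped one of the 2 G-quadruplex motifs there. The G-quadruplex motif was present in 16.7% of all promoters. The HNF4 element stood in the promoters of Cubn, Lrp2, Apob and Afp, against 15.4% of all promoters, and Apob held 3 copies. The HNF1 element was found in promoters of Apoe and Afp (6.43% of all promoters), and TATAAA in Apob, Apoe, Afp and Srgn (12.4%). The GATA string (9.99% of all promoters) and the FOXA string (3.17%) had no match in these windows.

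**Figure D1:**
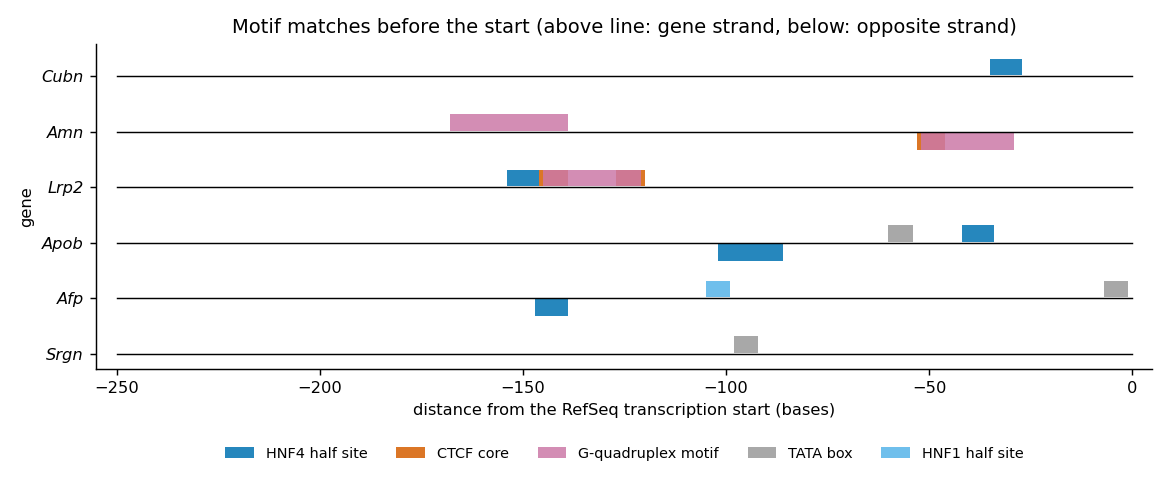
Motif matches in the 250 bases before the first RefSeq start of each gene (x axis, bases from the start; bars above the line on the gene's strand, below it on the opposite strand). The CTCF core and G-quadruplex matches of Lrp2 and Amn overlap, and Apob holds 3 HNF4 elements.

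Cubn encodes cubilin, the large peripheral receptor that binds vitamin-B12-intrinsic factor, albumin and apolipoprotein A-I. The gene lies on chromosome 2 from 13276338 to 13491813 on the minus strand (GENCODE M21, GRCm38). Its level was 3.79, 4.93 and 5.22 TPM (a level scaled by gene length and library depth) in the EV untreated libraries and 3.37 and 4.17 TPM in EV auxin. In FL auxin it was 15.8, 18.6 and 19.1 TPM, and in H373R auxin 11.6, 9.15 and 9.23 TPM. All FL libraries were thus above all H373R libraries, and all of these above the EV libraries. FL was above EV auxin by 2.29 ± 0.14 on the log2 scale of counts (SE, n = 3 and 2), and H373R by 1.43 ± 0.14. Between the reintroduced forms, which is not a contrast the gene was selected on but shares its libraries, H373R was lower by 0.86 (log2 fold change -0.86 ± 0.11 SE, adjusted p = 0.000256, edgeR with Benjamini-Hochberg adjustment). Exons of Cubn overlap the opposite-strand transcript Gm13270, and the strand setting of the counting is not given in the sources used here.

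Amn encodes amnionless, the transmembrane partner that brings cubilin to the surface. It lies on chromosome 12 from 111271095 to 111276426 on the plus strand. Its level was 13.2, 6.93 and 7.35 TPM in EV untreated and 9.81 and 10.2 TPM in EV auxin. It was 21.3, 17.8 and 16.1 TPM in FL auxin and 18.1, 17.4 and 20.7 TPM in H373R auxin. The FL and H373R libraries overlapped, both groups lay above every EV library, and the highest EV value was that of EV untreated replicate 1. Amn has a GC content of 62.9% in its longest transcript, against a median of 50.2% over all genes with a value. The log2 difference from EV auxin was 0.95 ± 0.22 (SE) for FL and 0.94 ± 0.22 for H373R. The difference between H373R and FL was -0.01 with a 95% interval of -0.35 to 0.34 (adjusted p = 0.993, edgeR). A reduction as large as that of Cubn lay outside this interval.

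Lrp2 encodes megalin, the transmembrane receptor that internalises ligands together with the cubilin complex. It lies on chromosome 2 from 69424340 to 69586065 on the minus strand. Its level was 12.9, 13.2 and 11.7 TPM in EV untreated and 9.82 and 11.1 TPM in EV auxin. FL auxin libraries were at 20.2, 20.7 and 22.4 TPM, and H373R auxin libraries at 17.4, 12.2 and 14.3 TPM. The FL libraries stood apart from all others, while the lowest H373R library lay among the EV untreated ones. The log2 difference from EV auxin was 1.08 ± 0.11 (SE) for FL and 0.52 ± 0.11 for H373R. H373R was lower than FL by 0.55 (log2 fold change -0.55 ± 0.096 SE, adjusted p = 0.00263, edgeR). With limma on log2(TPM + 1) and no filter on low values this difference did not pass the threshold (adjusted p = 0.0586).

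Apob encodes the structural apolipoprotein of very-low-density lipoproteins and lies on chromosome 12 from 7977648 to 8016835 on the plus strand. It was below 1 TPM in every library: 0.376, 0.55 and 0.461 TPM in EV untreated, 0.154 and 0.219 TPM in EV auxin, 0.951, 0.984 and 0.826 TPM in FL auxin, and 0.785, 0.653 and 0.609 TPM in H373R auxin. These levels rest on 10 to 76 counts per library. The 4 groups did not overlap in TPM, in the order EV auxin, EV untreated, H373R and FL. Auxin in the EV cells lowered Apob by 1.27 on the log2 scale (log2 fold change -1.27 ± 0.27 SE, adjusted p = 0.00325, edgeR), a contrast that shares both EV groups with those the genes were selected on. FL was above EV auxin by 2.32 ± 0.24 (SE) and H373R by 1.86 ± 0.25. H373R minus FL was -0.45 with a 95% interval of -0.77 to -0.14, and the adjusted p of 0.116 (edgeR) missed the threshold. Without EV untreated replicate 1, a library of neither compared group, that adjusted p was 0.0452 (edgeR). Under every other setting that tested Apob it was above the threshold, from 0.0623 (edgeR on the compared groups alone) to 0.351 (limma without a filter).

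Apoe encodes the apolipoprotein that is the ligand of receptors of the LDL receptor family, and it lies on chromosome 7 from 19696109 to 19699188 on the minus strand. Its level was 496, 362 and 360.1 TPM in EV untreated, 454 and 464 TPM in EV auxin, 642, 553 and 599 TPM in FL auxin, and 648, 594 and 673 TPM in H373R auxin. The reintroduction groups overlapped each other and lay above the EV libraries, of which EV untreated replicate 1 was the highest. The GC content of Apoe is 59.5%. FL was above EV auxin by 0.45 ± 0.11 on the log2 scale (SE), and H373R by 0.51 ± 0.11. Between H373R and FL the difference was 0.06 with a 95% interval of -0.13 to 0.25 (adjusted p = 0.769, edgeR).

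Mttp encodes the microsomal transfer protein that loads lipid onto apolipoprotein B, and it lies on chromosome 3 from 138089854 to 138144968 on the minus strand. Of the 10 genes it had the smallest log2 difference between FL and EV auxin (0.25 ± 0.097 SE), with 7.04, 7.64 and 7.65 TPM in EV untreated, 6.17 and 6.9 TPM in EV auxin, 7.05, 7.86 and 7.48 TPM in FL auxin, and 7.44, 7.41 and 6.63 TPM in H373R auxin. The FL libraries lay above both EV auxin libraries, and EV untreated, FL and H373R overlapped. H373R minus FL was -0.08 (95% interval -0.25 to 0.08, adjusted p = 0.629, edgeR). Exons of Mttp overlap Trmt10a and the antisense transcript Gm43691 on the opposite strand. Apob and the protein that loads it with lipid thus had different profiles over the same libraries.

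Ttr encodes transthyretin, a carrier of thyroid hormone and of retinol-binding protein, and it lies on chromosome 18 from 20665280 to 20674321 on the plus strand. It had 5, 1 and 0 counts in EV untreated and 1 and 0 in EV auxin. In FL auxin it had 17, 9 and 14 counts (2.5, 2.08 and 2.23 TPM), and in H373R auxin 20, 20 and 23 (2.71, 2.95 and 2.79 TPM). The EV libraries were near the floor of detection, and every H373R library was above every FL library. Against a floor of 3 counts per library, FL was at least 4.3-fold and H373R at least 5.24-fold higher than EV auxin. Ttr passed the filter on low counts only through its 3 FL and 3 H373R libraries, so a difference from the EV groups was built into its being tested. H373R minus FL was 0.27 (95% interval -0.37 to 0.90, adjusted p = 0.702, edgeR), so neither direction was resolved at this depth.

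Afp encodes alpha-fetoprotein, the fetal serum protein made by visceral endoderm and fetal liver, and it lies on chromosome 5 from 90490737 to 90508907 on the plus strand. It had 5, 7 and 3 counts in EV untreated, 0 and 2 in EV auxin, 16, 8 and 9 in FL auxin, and 13, 8 and 8 in H373R auxin. Its highest level was 0.828 TPM, in an FL library, and FL and H373R overlapped. Against the floor of 3 counts per library, FL was at least 3.57-fold and H373R at least 2.42-fold higher than EV auxin. Afp passed the filter only through 2 FL libraries and 1 H373R library. The H373R minus FL difference of -0.57 had a 95% interval of -1.34 to 0.20 (adjusted p = 0.456, edgeR), so a difference was not detectable at this depth.

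Klb encodes beta-Klotho, the co-receptor through which endocrine FGFs bind FGF receptors, and it lies on chromosome 5 from 65348314 to 65384007 on the plus strand. Its level was 1.1, 1.16 and 1.07 TPM in EV untreated and 1.14 and 0.99 TPM in EV auxin. FL auxin was at 4.91, 4.64 and 4.89 TPM, and H373R auxin at 3.01, 2.69 and 2.5 TPM. The EV groups overlapped, the H373R libraries lay above them, and the FL libraries lay above those. The log2 difference from EV auxin was 2.26 ± 0.16 (SE) for FL and 1.41 ± 0.17 for H373R. H373R was lower than FL by 0.85 (log2 fold change -0.85 ± 0.11 SE, adjusted p = 0.000268, edgeR).

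Srgn encodes serglycin, the core protein of intracellular proteoglycans of secretory granules, which is also made by endoderm of the yolk sac. It lies on chromosome 10 from 62493833 to 62527451 on the minus strand. Its level was 8.41, 8.47 and 11.4 TPM in EV untreated, 7.35 and 10.9 TPM in EV auxin, 32.6, 35.2 and 35.7 TPM in FL auxin, and 24.8, 21.4 and 22.5 TPM in H373R auxin. It had the same order of groups as Klb, with overlapping EV groups and separate FL and H373R groups. FL was above EV auxin by 1.95 ± 0.15 on the log2 scale (SE), and H373R by 1.34 ± 0.15. H373R was lower than FL by 0.61 (log2 fold change -0.61 ± 0.11 SE, adjusted p = 0.00348, edgeR). The adjusted p was 0.0528 with limma on log2(TPM + 0.1) and 0.0943 with log2(TPM + 1) and no filter.

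**Figure D2:**
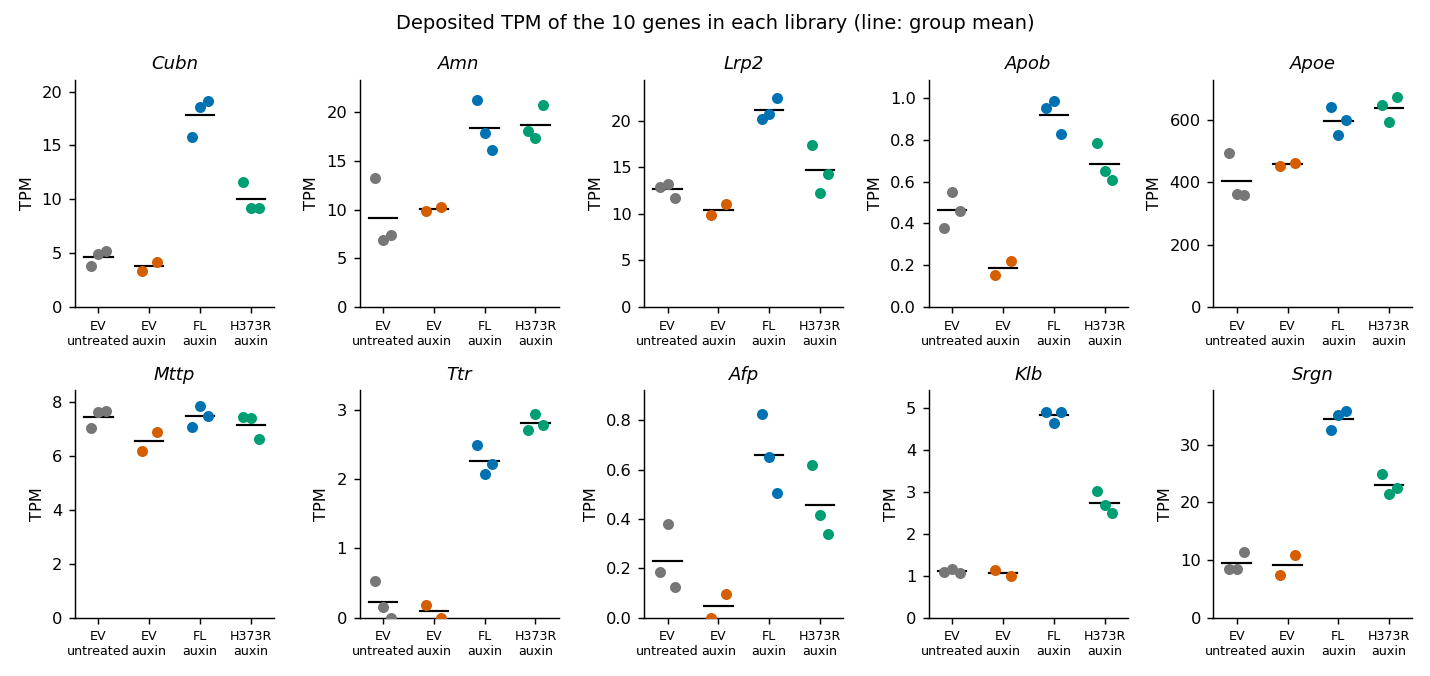
Deposited TPM of each gene (y axis, from 0) in the 11 libraries by group (x axis); points are libraries and lines are group means. The FL libraries of Cubn, Lrp2, Klb and Srgn lie above all H373R libraries, those of Amn, Apoe, Mttp and Afp overlap them, and Ttr and Afp are near 0 in the EV groups.

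Compared per length, Apoe had the highest TPM of the 10 genes in every group (means of 406 to 638 TPM), without overlap with the next gene. Lrp2 came second in both EV groups, at a mean of 12.6 ± 0.84 TPM in EV untreated (SD, n = 3) and 10.4 ± 0.89 TPM in EV auxin (SD, n = 2). Srgn came second in the reintroduction groups, at 34.5 ± 1.71 TPM in FL auxin and 22.9 ± 1.74 TPM in H373R auxin (SD, n = 3 each). In the EV auxin libraries the ranges of Lrp2, Amn and Srgn overlapped, so their order there is not resolved. In FL auxin the range of Amn overlapped those of Lrp2 and of Cubn, while Lrp2, at 21.1 ± 1.13 TPM, lay above Cubn, at 17.8 ± 1.8 TPM (SD, n = 3 each). Apob and Afp overlapped and were lowest in FL auxin and H373R auxin, and below 1 TPM throughout.

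H373R against FL is not among the contrasts the genes were selected on, but it shares the FL and H373R libraries with them. Genes chosen for a high level in FL libraries can lie lower in H373R through that choice, so the count of genes called is not independent of it. Of the 10 genes, 4 were lower with H373R (Cubn, Klb, Srgn and Lrp2), while 2.82% of all 16420 tested genes were called lower and 3.14% higher at an adjusted p under 0.05 (edgeR). Among the uptake receptor genes Cubn and Lrp2 were called and Amn was not, and the lipoprotein genes Apob, Apoe and Mttp were not called. Klb and Srgn belong to neither kind. The median log2 difference of the 10 genes was -0.50, against 0.00 over all tested genes. Every FL library was above every H373R library in scaled counts for 5 of them, which adds Apob, against 13.4% of all tested genes. The other 6 genes did not pass the test. The intervals of 5 of them (Amn, Apoe, Mttp, Ttr and Apob) exclude the -0.86 measured for Cubn, and that of Afp includes it. Because these are bulk libraries, fewer cells of a type and less RNA per cell cannot be told apart.

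The contrasts that chose the genes are given as counts of genes called, as a description only. Ttr and Afp are among these counts although they were tested only because of their FL and H373R libraries. FL was called above EV auxin for 9 of the 10 genes (all but Mttp; 11.1% of tested genes higher and 13.4% lower). H373R was called above EV auxin for the same 9 (10% higher and 11.7% lower). These comparisons share the EV auxin libraries. Against EV untreated, FL was called higher for 9 (17.7% higher and 19.2% lower) and H373R for 7 (22.3% higher and 22.1% lower), the latter without Lrp2, Mttp and Afp.

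**Figure D3:**
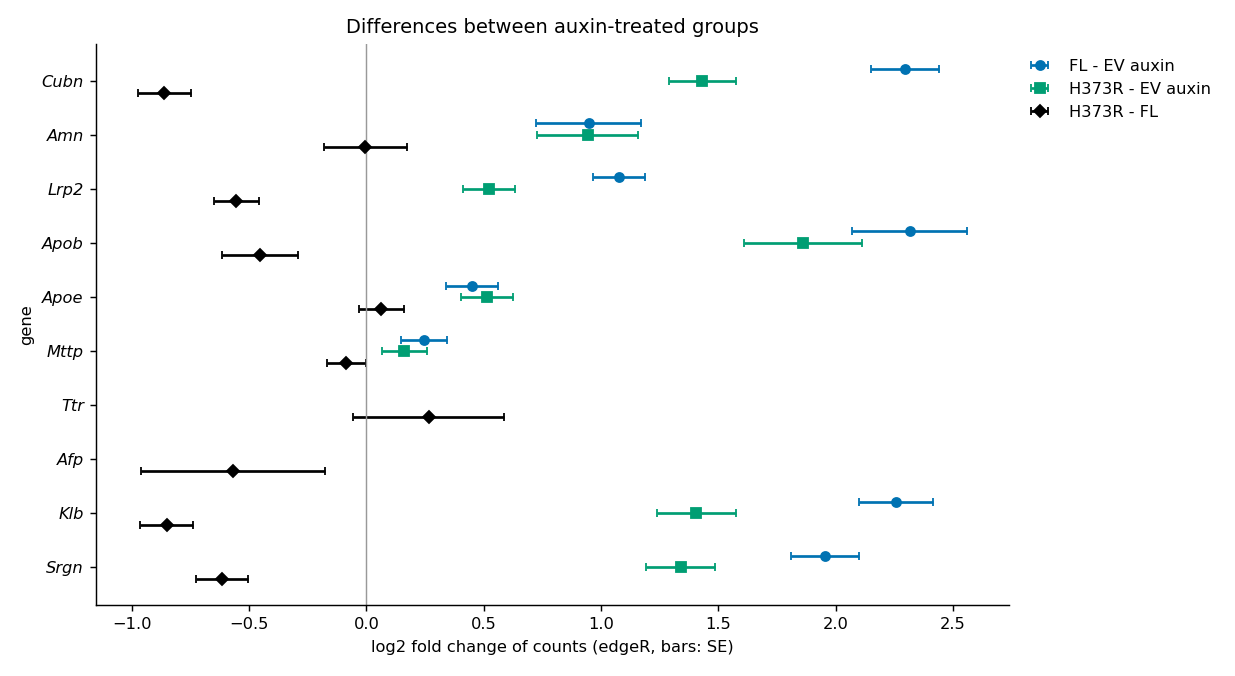
Log2 fold changes of counts with their SE (x axis) for each gene (y axis) between auxin-treated groups; Ttr and Afp are shown for H373R minus FL only, because EV auxin held 3 counts or fewer of each. Cubn, Klb, Srgn and Lrp2 lie below 0 for H373R minus FL, at -0.86 to -0.55, while Amn and Apoe lie at -0.01 and 0.06.

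Auxin alone, EV auxin against EV untreated, changed 1 of the 10 genes, Apob, which fell; 9.4% of tested genes were called lower and 11.3% higher, so this count is close to that of genes in general. Apob was also called when any single library was left out, and other genes joined it in some of those fits. Without EV untreated replicate 1, which stands apart by GC content, 6 of the 10 genes were called, beside 5444 of 16332 tested genes. Then Cubn (log2 fold change -0.45, adjusted p = 0.00572), Lrp2 (-0.28, 0.037), Apob (-1.42, 0.00042) and Mttp (-0.26, 0.046) were lower after auxin, and Amn (0.45, 0.042) and Apoe (0.31, 0.000291) were higher (edgeR). Replicate 1 held the highest EV untreated levels of Amn and Apoe and the lowest of Cubn, Apob and Mttp.

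The regulators of the endoderm lineage were looked at beside the 10 genes, in a list of 9 chosen with earlier results known and thus no independent evidence of direction. FL was higher than EV auxin for 6 of the 9 and lower for 1, and H373R was higher for 6 (edgeR; shares of all tested genes as given above). Gata6, the primitive endoderm factor, was at 2.42, 2.44 and 2.45 TPM in EV untreated, 2.48 and 2.79 TPM in EV auxin, 10.05, 10.2 and 10.2 TPM in FL auxin and 5.88, 6.18 and 6.52 TPM in H373R auxin. It rose by 2.00 ± 0.098 on the log2 scale in FL against EV auxin (SE, adjusted p = 1.08e-08, edgeR). Gata4, Sox17, Sox7, Foxa2 and the receptor gene Pdgfra rose as well, by 1.14, 1.34, 1.19, 1.59 and 2.10. Hnf4a, a nuclear receptor of liver and visceral endoderm, fell by 0.35 (adjusted p = 0.0246). H373R was lower than FL for 3 of the 9, Gata6 (-0.74 ± 0.074 SE, adjusted p = 2.31e-05), Pdgfra (-0.98 ± 0.10, 4.4e-05) and Gata4 (-0.46 ± 0.081, 0.00321).

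Partners of the uptake receptors were taken as a list of 35 genes, of which 33 were tested. FL was higher than EV auxin for 12 and lower for 1, H373R was higher for 11 and lower for 1, and H373R was lower than FL for 4 and higher for 1 (edgeR). Over all tested genes the shares were 11.1% higher and 13.4% lower, 10% and 11.7%, and, for H373R against FL, 2.82% lower and 3.14% higher. The list's median log2 difference between H373R and FL was -0.01, against 0.00 over all tested genes. Dab2, the clathrin adaptor that binds the tails of megalin and amnionless, was at 5.3, 7.48 and 7.25 TPM in EV untreated, 5.66 and 6.09 TPM in EV auxin, 20.6, 24.1 and 25.3 TPM in FL auxin and 14.9, 13.01 and 13.9 TPM in H373R auxin. The EV groups overlapped and the other groups stood apart, as for Klb and Srgn. Dab2 rose by 2.05 ± 0.13 in FL against EV auxin (SE, adjusted p = 1.2e-07, edgeR) and was lower in H373R than in FL by 0.77 (-0.77 ± 0.10 SE, adjusted p = 0.000335).

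Ocrl, an inositol phosphatase of the endocytic pathway needed for megalin recycling, had another profile. Its level was 17.1, 20.2 and 20.4 TPM in EV untreated, 7.1 and 7.07 TPM in EV auxin, 14.6, 15.5 and 15.3 TPM in FL auxin and 7.05, 7.8 and 7.03 TPM in H373R auxin. Auxin in the EV cells lowered it by 1.46 (log2 fold change -1.46 ± 0.089 SE, adjusted p = 1.43e-08, edgeR). FL was above EV auxin by 1.16 ± 0.09 (adjusted p = 6.56e-07), and H373R was below FL (-1.08 ± 0.078, adjusted p = 6.69e-07). H373R and EV auxin overlapped, with a difference of 0.08 and a 95% interval of -0.10 to 0.26. Among other genes of the list, the lysosomal protease gene Ctsl rose in FL against EV auxin (0.50) and in H373R (0.31), and Rabep1, an early endosome effector, fell (-0.32 and -0.40).

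Of 40 further genes of lipoprotein assembly, receptors and lipid transfer, 34 were tested. FL was higher than EV auxin for 7 and lower for 5, H373R was higher for 8 and lower for 2, and H373R was lower than FL for 2 and higher for 1 (edgeR). The shares of all tested genes were 11.1% and 13.4%, 10% and 11.7%, and 2.82% and 3.14%, in the same order. The list's medians were 0.07, 0.05 and 0.06 on the log2 scale in these comparisons, close to the 0 of all tested genes. Pltp, the phospholipid transfer protein, rose by 0.69 ± 0.08 in FL (SE, adjusted p = 3.07e-05) and by 0.68 ± 0.079 in H373R (adjusted p = 6.79e-05) against EV auxin. Lrpap1, the chaperone of megalin and related receptors, rose in FL (0.34, adjusted p = 0.00126) and was lower in H373R than in FL (-0.24, adjusted p = 0.017). Npc2, which carries cholesterol out of lysosomes, rose in both (0.26 and 0.35).

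**Figure D4:**
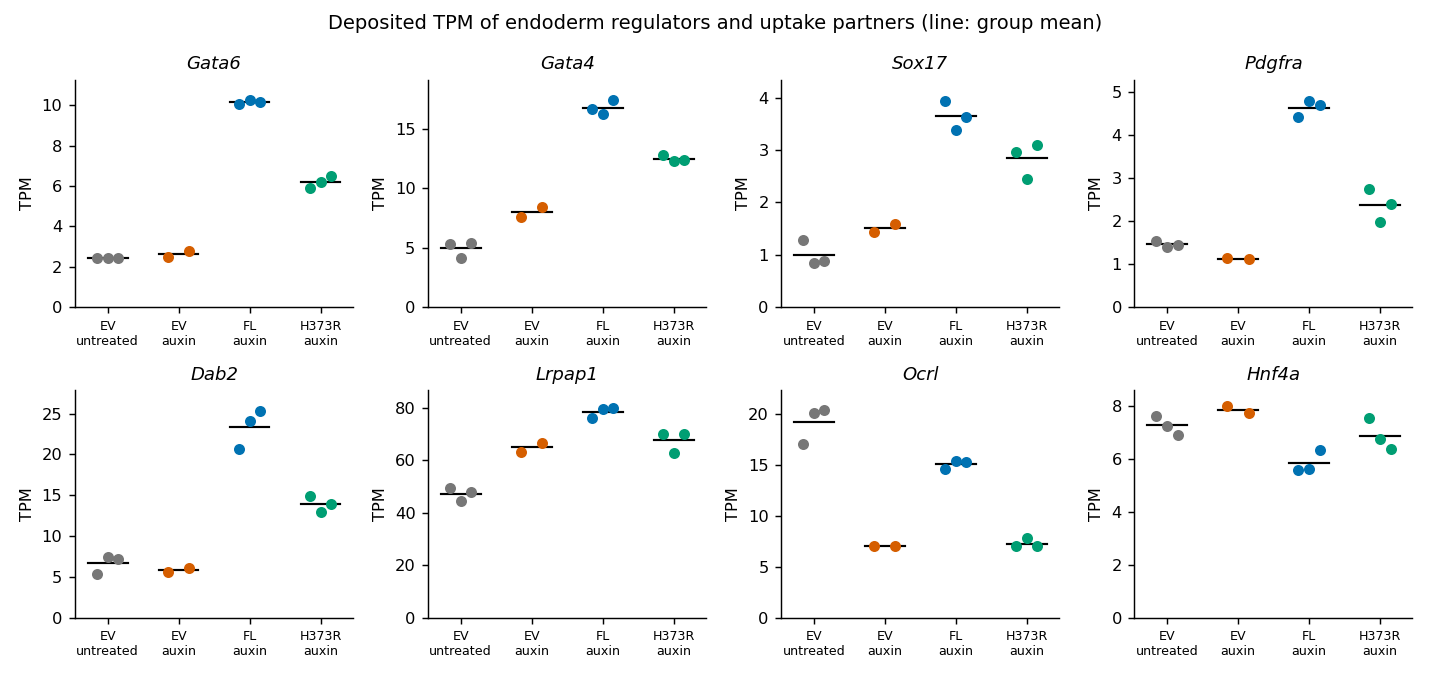
Deposited TPM of 4 endoderm regulators (Gata6, Gata4, Sox17, Pdgfra), 3 genes around the uptake receptors (Dab2, Lrpap1, Ocrl) and Hnf4a (y axis, from 0) in each library by group; lines are group means. Dab2 and Gata6 are highest in FL auxin and intermediate in H373R auxin, whereas Ocrl is as low in H373R auxin (7.03 to 7.8 TPM) as in EV auxin (7.07 and 7.1 TPM).

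Of the 9 genes around beta-Klotho (FGF receptors and endocrine FGFs), 7 were tested. Against EV auxin, FL was higher for 1 and lower for 0 (11.1% and 13.4% of all tested genes), with a list median of -0.097 on the log2 scale. H373R was higher for 2 and lower for 1 (10% and 11.7%), with a median of -0.0043. Against FL, H373R was higher for 0 and lower for 1 (3.14% and 2.82%), with a median of 0.16. Fgf15, the intestinal hormone that signals through beta-Klotho, rose in FL (0.55 ± 0.064 SE, adjusted p = 2.97e-05) and in H373R (0.71 ± 0.063, adjusted p = 9.09e-06) against EV auxin (edgeR). Fgfr4, a receptor that pairs with beta-Klotho, rose in H373R (0.55, adjusted p = 0.00314), and in FL its difference was 0.25 (adjusted p = 0.145). Fgfr2 was lower in H373R than in FL (-0.40, adjusted p = 0.013).

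Markers of visceral endoderm other than the 10 genes were taken as a list, and those of its anterior part as a further list. Of 21 further products of that tissue, 16 were tested, and FL was higher than EV auxin for 5 and lower for 2 (11.1% and 13.4% of all tested genes), with H373R higher for 3 (10%, edgeR). Against EV untreated, FL was higher for 10 and lower for 1 (17.7% and 19.2% of all tested genes), and H373R was higher for 10 (22.3%). The transferrin gene Trf rose in both (0.31 and 0.38), and Pdzk1, a scaffold of the brush border, fell in FL (-0.43). The summed level of these 21 genes was 478 to 492 TPM in EV untreated, 560 to 568 TPM in EV auxin, 630 to 639 TPM in FL auxin and 540 to 565 TPM in H373R auxin, so the ranges of H373R and EV auxin overlapped. Rhox5 and Lgmn made up most of this sum. Rhox5 was at means of 258, 303, 354 and 275 TPM in the same order of groups, and Lgmn at 121, 130, 152 and 147 TPM. Between H373R and FL, 1 of the 16 was higher and 1 lower (3.14% and 2.82% of all tested genes). In EV auxin against EV untreated, 4 were higher and 1 lower (11.3% and 9.4%, edgeR). Of 7 anterior visceral endoderm markers, 6 were tested. FL was higher than EV auxin for 3 and lower for 1 (11.1% and 13.4%), and H373R higher for 1 and lower for 0 (10% and 11.7%). H373R was lower than FL for 1 and higher for 0 (2.82% and 3.14%). From EV auxin to FL and H373R auxin, Lefty1 had means of 177, 137 and 145 TPM, and Hhex 6.49, 8.72 and 8.54 TPM.

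Markers of other sources of these transcripts were also read. Of 11 hepatocyte markers 2 were tested, their summed level was 4.78 to 6.04 TPM in EV untreated, 7.85 to 8.5 TPM in EV auxin, 6.84 to 8.78 TPM in FL auxin and 5.86 to 7.59 TPM in H373R auxin, and albumin (Alb) was at a mean of 0 to 0.0344 TPM. Of 10 blood markers 6 were tested, with sums of 54.4 to 63.2 TPM in EV untreated, 56.5 to 57.0 in EV auxin, 60.6 to 68.7 in FL auxin and 69.2 to 71.2 in H373R auxin, and Ptprc was at most at a mean of 0.0119 TPM. Laptm5, a lysosomal membrane protein gene of that list, was at means of 24.9, 19.9, 31.8 and 32.7 TPM in the same order of groups, and it rose against EV auxin in FL (0.74 ± 0.09 SE, adjusted p = 4.56e-05) and in H373R (0.75 ± 0.089, adjusted p = 7.5e-05, edgeR). The part of these transcripts in the results was not tested. Of 11 fibroblast markers 5 were tested, with sums of 65.7 to 70.9 TPM in EV untreated, 65.2 to 71.7 TPM in EV auxin, 81.6 to 92.1 TPM in FL auxin and 85.7 to 90.2 TPM in H373R auxin. The fibroblast sum was higher in both reintroduction groups, with Col1a1 at means of 15.6, 16.5, 21.9 and 20.3 TPM in the 4 groups, and its part in the results was not tested. Of 13 pluripotency genes, all tested, FL was higher than EV auxin for 6 and lower for 2 (median log2 difference 0.14). H373R was higher for 3 and lower for 2 (median 0.08). The shares of all tested genes were 11.1% and 13.4% for FL, and 10% and 11.7% for H373R. Among the pluripotency genes that fell against EV auxin was Nanog, a factor that represses primitive endoderm. It fell in FL (-0.35 ± 0.063 SE, adjusted p = 0.00107) and in H373R (-0.23 ± 0.063, adjusted p = 0.0161, edgeR). Fgf4 went the other way, at means of 179 TPM in EV auxin, 240 TPM in FL auxin and 213 TPM in H373R auxin.

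Over the 11 libraries, the log2 level of each gene was compared with the mean of the other 9 as a description, since the points share their libraries and groups. The correlation was highest for Cubn (Pearson's r = 0.96, n = 11), Klb (0.96) and Srgn (0.95), and lowest for Mttp (0.51), Apoe (0.76) and Amn (0.80). Among 12718 other genes with enough counts, those most like the mean of the 10 were Ubqln2 (r = 0.98), Ucp2 (0.98), Thy1 (0.98), Runx1 (0.98) and Sox1 (0.97), each over 11 libraries. By level, Sox1 was at a mean of 7.25 TPM in EV auxin, 17.2 TPM in FL auxin and 12.4 TPM in H373R auxin, and Ubqln2 at 93.0, 108 and 104 TPM.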

How the data were processed

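The authors deposited raw counts per gene symbol and TPM (transcript abundance scaled by gene length and depth) for 11 RNA-seq libraries. Per the labels' protocols, directional libraries were made from column-purified RNA. Per the submitters' processing notes, featureCounts (Subread 2.0.3), DESeq2 and the builds mm10 and GRCm38 were named; the aligner and the strand setting of the counting are not given in the sources used here.

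Groups were taken from the labels. The test was that of edgeR 4.0.16, run in R 4.3.3 (TMM scaling, filterByExpr by group, one group-means model over all 11 libraries, quasi-likelihood F test, Benjamini-Hochberg adjustment over 16420 genes, threshold 0.05). Intervals called 95% are 1.96 SE on each side, a normal approximation that is somewhat narrower than the F test implies. For Cubn in EV auxin against EV untreated, that interval was -0.60 to -0.017 while the unadjusted p was 0.055 (edgeR F test). The common biological coefficient of variation was 0.0578. Where a group held 3 counts or fewer in every library, folds are bounds against 3 counts, which cover counting error only. On simulated data for EV auxin against EV untreated, with 2-fold changes in 200 of 16164 genes, edgeR recovered 95.5% with 15 false calls. The changed genes were drawn above a mean level that Ttr and Afp did not reach. Changes of less than 2-fold were not simulated.

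The 10 genes, the 11 companion lists and the motif strings were chosen with earlier results of these data known. Named list genes are up to 4 tested genes per list with the smallest adjusted p in any comparison, and a fixed set of regulators and markers. Likeness was computed on log2 CPM (prior count 2). Gene positions are from GENCODE M21.

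Alternative settings were DESeq2 1.42.0, limma 3.58.1 on TPM, upper quartile or RLE scaling, other filters, robust dispersion, fits to the compared groups alone, a block for the replicate number, and the omission of single libraries.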

Additional observations from a re-analysis of the deposited data

How the results depend on the processing

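The number of the 10 genes called for EV auxin against EV untreated, 1, became 2 with DESeq2, 3 with no filter and 0 with limma on log2(TPM + 1), log2(TPM + 0.1) or log2(TPM + 1) without a filter. Over all tested genes, 2876 of 16420 were called with DESeq2 and 3563 of 30501 with no filter. Under the limma settings, in the same order, 2728 of 17186, 2699 of 17186 and 2420 of 30501 were called. Apob, the gene called, was below the filter of the first 2 limma settings and was not tested there, and its adjusted p was 0.0824 in the third. Leaving out 1 library gave 1 to 6, with 6 without EV untreated replicate 1 and 2 without H373R auxin replicate 1 or 2. The 4 called for H373R against FL became 2 with limma on log2(TPM + 1) without a filter and 4 to 5 when 1 library was left out. Leaving out 1 library gave 7 to 10 for FL against EV auxin, 6 to 9 for H373R against EV auxin, 8 to 9 for FL against EV untreated and 6 to 8 for H373R against EV untreated. The contrasts of FL and H373R against the EV groups are those that chose the genes, so their ranges are a description only. Ttr and Afp are among these counts, although they passed the filter only through FL and H373R libraries. In the EV auxin fits without 1 EV auxin library, the lone library was assumed to vary like the other groups. The numbers called over all tested genes moved as well. Without EV untreated replicate 1 they were, of 16332, 5800 for FL and 5397 for H373R against EV auxin. Against EV untreated they were then 7706 for FL and 8927 for H373R, and 2323 for H373R against FL. For H373R against FL they were 510 of 16344 without H373R auxin replicate 3, and 588 of 30501 with limma on log2(TPM + 1) without a filter.

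Sign changes occurred only for differences near 0 or at low counts. The log2 difference of Amn between H373R and FL was 0.00297 with no filter, 0.029, 0.031 and 0.029 under the 3 limma settings, and -0.11 to 0.13 when 1 library was left out (0.13 without FL auxin replicate 1, 0.013 and 0.041 without H373R auxin replicates 1 and 2). For EV auxin against EV untreated, leaving out 1 library gave -0.093 to 0.45 for Amn (-0.079 and -0.093 without EV untreated replicates 2 and 3), -3.90 to 0.14 for Ttr (0.14 without EV untreated replicate 1), -0.20 to 0.019 for Klb (0.019 without EV auxin replicate 2) and -0.38 to 0.17 for Srgn (0.11 without EV untreated replicate 3, 0.17 without EV auxin replicate 1). The cause was not tested. Over 60 gene and comparison pairs, 1192 alternative values kept their direction and side of the threshold or moved by less than the spread between replicates. Of the rest, 58 moved by more, 14 changed sign, 11 passed the threshold where the reported value did not, and 4 no longer passed it. Changes of side were counted only for EV auxin against EV untreated and for H373R against FL. In the other comparisons values were judged by the size of their move. A sign change was counted there only where the reported or the alternative fit called the gene.

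The same replicate numbers occur in each group, but over 15 same-numbered pairs the correlation of deviations from the group means was -0.087 to 0.28 and exceeded 0.1 in 3, so the numbers were not taken as pairs. With the replicate block the counts of called genes were 1, 9, 9, 4, 9 and 7 in the 6 comparisons, as without it, and Amn was at 0.015 for H373R against FL. Over all 16420 tested genes, the block gave 3197, 3978, 3532, 942, 6142 and 7436 called in the same order. Ttr, Afp and Apob are limited by counts of 76 or fewer per library.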

Other observations

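Markers of parietal endoderm, the sister lineage that lines the yolk sac cavity, were read as a list of 12, all tested. The list holds basement membrane genes and others, such as Thbd, Snai1, Fst and Pth1r. FL was higher than EV auxin for 7 and lower for 1, H373R was higher for 5 and lower for 1, and H373R was lower than FL for 5 and higher for 1 (edgeR, adjusted p under 0.05). Of all tested genes, 11.1% were higher and 13.4% lower for FL, 10% and 11.7% for H373R, and 2.82% lower and 3.14% higher for H373R against FL. The collagen genes Col4a1 and Col4a2 rose by 1.04 and 1.26 on the log2 scale in FL against EV auxin, and the laminin genes Lama1 and Lamb1 by 1.18 and 0.62. In H373R the rises were 0.49, 0.65, 0.65 and 0.35, and each of the 4 was lower than in FL (-0.54, -0.61, -0.53 and -0.27). The summed level of the 12 genes was 919 to 950 TPM in EV auxin, 1119 to 1174 TPM in FL auxin and 1007 to 1091 TPM in H373R auxin. Plat, the tissue plasminogen activator gene, named here after its values were seen, was the member that fell in FL (-1.08).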
